A study of Mus musculus with 9 samples.

Results

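The DNA replication machinery was examined as 45 named genes in cultured mouse cells carried from fibroblasts to induced pluripotent stem (iPS) cells. The genes were taken from a list of replication licensing, polymerase and fork genes. Each was read from the array row that maps to its symbol and to no other symbol, and where several such rows existed from the row whose mean across the 9 arrays was highest. All 45 of 45 genes were measured, out of 19937 genes with such a row. Of the 45, 6 encode the MCM2-7 helicase, 6 the origin recognition complex, 8 loading and firing factors, 9 polymerase and primase subunits, 11 the sliding clamp, its loader, single-strand binding proteins and flap processing enzymes, 3 enzymes of nucleotide supply and 2 E2F transcription factors.

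Total RNA was read on Affymetrix mouse whole-transcript arrays in 3 groups of 3 arrays, with 1 array per sample. All samples, fibroblasts included, carried the OG2-GFP/Rosa26-M2rtTA background, a GFP reporter of Oct4 with a doxycycline-dependent transactivator at the Rosa26 locus. The fibroblasts were derived from TSKM-iPS mice, grown in feeder medium and used at passage 4. The day-3 cells, labelled TSKM-3D and intermediate stage, were such fibroblasts at passage 4 moved to ES medium with LIF and doxycycline for 3 days, so the change of medium and the induction cannot be told apart. The iPS cells, made by induction of Tet1, Sox2, Klf4 and c-Myc in the secondary TSKM system, were used at passages 10 to 15 after growth on mitomycin C treated feeder cells, which were removed by letting them settle on a new dish. For these iPS cultures, the use of doxycycline is not stated in the labels. The labels name 1 iPS line and do not state whether arrays of 1 group stem from different cultures; the p-values therefore reflect array-to-array spread that could be technical. The third fibroblast array carries a cell type label of 3-day induced cells against a title, source and passage of fibroblasts, and it was kept with the fibroblasts.

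Replication starts when the origin recognition complex, with CDC6 and CDT1, loads the MCM2-7 helicase onto DNA, a step called licensing. In S phase the CDC45 and GINS proteins join and activate the helicase, primase and polymerase alpha start each strand, and polymerases epsilon and delta extend the strands with the PCNA clamp, the RFC clamp loader and the RPA single-strand binding complex. Many genes of this machinery are known targets of E2F transcription factors, which act at the passage from G1 to S phase. Pluripotent stem cells of the mouse are known for a short G1 phase, so that a large share of cells in culture is in S phase.

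E2F factors bind short sites near the starts of replication genes, and the promoter windows of 5 members with such letters are shown. They were picked because these genes rose in iPS cells against day 3 and against fibroblasts. Orc3, Gins3, Pola1 and Rfc3 also held such letters in the 250 bases before the start, but did not rise 2-fold in both comparisons. The 5 windows therefore cannot show whether such letters go with a rise. The RefSeq table for GRCm38.p6 held 46 windows of 300 bases, from 250 bases before to 50 bases after a start, for 38 of the 45 genes. Mcm4, Gins1, Gins2, Gins4, Pole, Prim2 and Rfc2 had no entry. The 250 bases before the start are given 5′ to 3′ on the gene's strand, and capitals mark letters that match an E2F site on either strand.
Mcm5 (chr8:75109259-75109508, plus strand): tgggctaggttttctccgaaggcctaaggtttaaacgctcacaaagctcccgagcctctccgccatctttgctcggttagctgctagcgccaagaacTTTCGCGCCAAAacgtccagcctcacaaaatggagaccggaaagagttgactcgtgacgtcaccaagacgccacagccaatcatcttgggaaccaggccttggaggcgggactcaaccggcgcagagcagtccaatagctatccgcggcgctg
Mcm6 (chr1:128359706-128359955, minus strand): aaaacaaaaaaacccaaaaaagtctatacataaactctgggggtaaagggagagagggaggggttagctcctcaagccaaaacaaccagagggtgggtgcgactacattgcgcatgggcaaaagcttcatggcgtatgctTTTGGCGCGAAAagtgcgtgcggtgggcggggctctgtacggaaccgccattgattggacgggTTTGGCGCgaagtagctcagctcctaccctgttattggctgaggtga
Mcm7 (chr5:138171884-138172133, minus strand): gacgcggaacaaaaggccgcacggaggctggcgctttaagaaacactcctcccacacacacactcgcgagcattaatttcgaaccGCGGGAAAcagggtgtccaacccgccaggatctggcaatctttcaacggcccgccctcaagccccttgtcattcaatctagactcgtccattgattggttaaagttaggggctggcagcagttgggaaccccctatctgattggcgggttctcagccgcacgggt
Orc1 (chr4:108579204-108579453, plus strand): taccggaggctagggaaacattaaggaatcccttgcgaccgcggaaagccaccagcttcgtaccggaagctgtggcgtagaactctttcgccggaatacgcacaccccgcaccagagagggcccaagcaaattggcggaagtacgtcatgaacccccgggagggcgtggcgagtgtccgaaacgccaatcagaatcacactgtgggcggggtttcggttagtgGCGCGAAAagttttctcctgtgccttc
Cdc6 (chr11:98907901-98908150, plus strand): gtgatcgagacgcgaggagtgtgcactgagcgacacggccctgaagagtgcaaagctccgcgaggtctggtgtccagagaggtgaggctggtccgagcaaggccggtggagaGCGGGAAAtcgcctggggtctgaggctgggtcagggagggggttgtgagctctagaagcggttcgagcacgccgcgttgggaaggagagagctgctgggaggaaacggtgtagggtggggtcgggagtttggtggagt
The E2F letters searched were TTTCCCGC, TTTCGCGC, TTTGGCGC and TTTGCCGC, matched exactly on both strands. The capitals of Mcm5 hold 2 overlapping matches, and the first capitals of Mcm6 hold 2 overlapping matches ahead of 1 separate match. Mcm7 is shown at 1 of its 2 starts, the start with the match.

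At least 1 E2F match lay in the 300-base windows of 15 of the 38 genes, 39.5%, against 704 of 27025 genes, 2.6%, in the whole table. The genes were Mcm3, Mcm5, Mcm6, Mcm7, Orc1, Orc3, Cdc6, Cdt1, Gins3, Pola1, Pold1, Pold3, Pole2, Rfc3 and Lig1. Among genes measured on the array the share with an E2F match was 3.5%. Among 26 of the G2 and mitosis genes counted below it was 3.8%. Within the 250 bases before the start alone the share was 9 of 38 genes, 23.7%, against 2.2% of the whole table, since the matches of Mcm3, Cdt1, Pold1, Pold3, Pole2 and Lig1 lay after the start. The CCAAT letters of the NF-Y box lay in the windows of 24 of 38 genes, 63.2%, against 41.1% of all genes. The G2 and mitosis genes had a higher share, 73.1%. An NF-Y box overlapped an E2F match after the start of Mcm7. The E-box CACGTG, which c-Myc can bind, lay in 7 of 38 windows by gene, 18.4%, against 8.1% of all genes and 7.7% of the G2 and mitosis genes. A match is a description of letters in a window.

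The group labels were checked on marker genes. The summed linear level of 11 pluripotency markers lay between 496.8 and 501.8 on fibroblast arrays, 649.2 and 764.9 at day 3, and 32850 and 33110 on iPS arrays. The sum of 14 fibroblast markers lay between 39230 and 40200, 20420 and 21320, and 8110 and 9942 in the same order, and 10 of the 14 lay above the median gene on the iPS arrays. Macrophage markers (12 genes) summed to 1834 to 1978 for fibroblasts, 670.3 to 760.6 at day 3 and 1326 to 1339 for iPS cells. Of these 12 genes, limma called 5 lower at day 3 than in fibroblasts and 6 lower in iPS cells than in fibroblasts. The 1 macrophage marker called higher in iPS cells than in day-3 cells was Cd68, at 7.67 ± 0.14 at day 3 and 9.59 ± 0.01 in iPS cells (SD, n = 3 each), and the median difference of the 12 genes between these groups was 0.16. Values on this scale have no 0, and 0 of 11 pluripotency markers lay above the median gene in fibroblasts. The sums of 6 endothelial markers (256.2 to 259.0, 266.2 to 313.1 and 747.1 to 763.2) and of 6 keratinocyte markers (277.6 to 291.5, 268.5 to 350.6 and 314.7 to 329.7) are given in the same order of groups, and Pecam1 was the 1 marker of these 12 called in any comparison, higher in iPS cells. The part of these cell mixtures in the replication gene values was not tested, and in bulk RNA fewer cells that replicate DNA and less RNA per cell cannot be told apart.

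Across the 3 groups, 29 of the 45 genes had all day-3 arrays below both other groups, against 9.85% of all genes. The iPS mean was above the day-3 mean for 42 of the 45 genes, against 9652 of all 19937. It was above the fibroblast mean for 36 of the 45, against 11173 of all 19937. A change was called when limma's Benjamini-Hochberg adjusted p over all 19937 genes was under 0.05 and the change was at least 2-fold, which is 1 on the log2 scale. At day 3 against fibroblasts, 1 of the 45 genes was called higher, where 3.25% of all genes were, and 8 were called lower, where 7.58% of all genes were. In iPS cells against day 3, 32 of 45 were called higher, against 6.48% of all genes, and 1 was called lower, against 8.57%. In iPS cells against fibroblasts, 22 of 45 were called higher, against 7.63% of all genes, and 0 were called lower, against 13.8%; at an unadjusted p under 0.05 without the fold limit, 36 of the 45 differed in limma's test, against 58.4% of all genes. The 3 comparisons share arrays.

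The median log2 difference of the 45 genes was -0.33 at day 3 against fibroblasts, where the median of all genes was 0.05. For iPS cells against day 3 it was 1.21, with -0.01 for all genes. For iPS cells against fibroblasts it was 0.90, with 0.05 for all genes. The sign of the day-3 difference was negative for 33 of the 45 genes, against 8519 of all 19937.

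The doubtful label of the third fibroblast array bears on the day-3 comparison. On 42 of the 45 genes this array lay nearer to the mean of the other fibroblast arrays than to the day-3 mean. The share over all genes was not counted. The same held on 9 of the 9 genes called at day 3. Those were called with the array among the fibroblasts, so that count cannot bear on its label. Over all genes its correlations with the other fibroblast arrays were 0.9978 and 0.9984, and theirs with each other was 0.9981. The fibroblast marker sum lay between 39230 and 40200 on the fibroblast arrays, this array included, and between 20420 and 21320 at day 3. The macrophage marker sum lay between 1834 and 1978, and between 670.3 and 760.6 at day 3. On these markers the array thus read as the other fibroblast arrays did. Without the array, 1 gene was called higher and 8 lower at day 3. With the array placed in the day-3 group, 0 of the 45 genes were called at day 3 in either direction, and 0 of all 19937 genes were. In that placement 26 genes were called higher in iPS cells than in day-3 cells and 0 lower, and 22 higher than in fibroblasts.

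**Figure D1:**
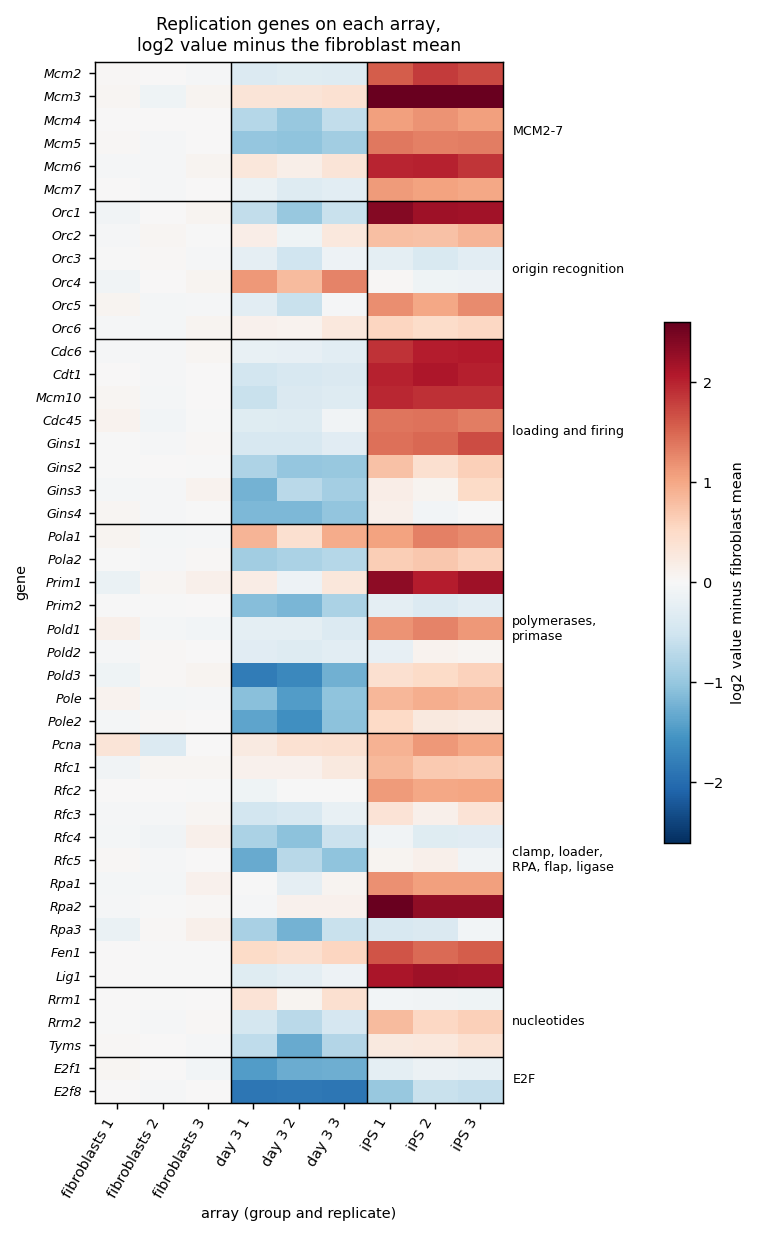
Each cell is the log2 value of 1 gene (rows, grouped by role) on 1 array (columns, 3 per group) minus the mean of the 3 fibroblast arrays for that gene. Red is higher and blue lower than the fibroblast mean; the day-3 columns are blue for most genes, and the iPS columns are red for all 6 MCM2-7 genes and near white for genes such as Gins4 and Rfc5.

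The helicase genes Mcm2 to Mcm7, whose products form the ring that unwinds DNA, were all called higher in iPS cells in both comparisons. Of all genes, 6.48% were called higher against day 3 and 7.63% against fibroblasts. At day 3 against fibroblasts 0 of the 6 were called, where 3.25% of all genes were called higher and 7.58% lower. Mcm3 read 8.74, 8.57 and 8.77 on the log2 scale for fibroblasts, 9.04, 9.03 and 9.09 at day 3 and 11.26, 11.27 and 11.27 for iPS cells. The 3 groups stood apart in rising order. Mcm3 was 5.95-fold higher in iPS cells than in fibroblasts (log2 difference 2.57 ± 0.08 SE, limma, Benjamini-Hochberg adjusted p = 1.30e-10), the largest rise of the 45 genes in that comparison.

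Mcm6 also lay in rising order, at 9.13, 9.11 and 9.22 for fibroblasts, 9.45, 9.32 and 9.48 at day 3 and 11.14, 11.15 and 11.02 for iPS cells. The other helicase genes had their lowest values at day 3. Mcm5 read 9.77, 9.70 and 9.75 for fibroblasts, 8.73, 8.69 and 8.85 at day 3 and 11.11, 11.05 and 11.08 for iPS cells, with no overlap of groups. Its day-3 difference of -0.99 ± 0.07 (limma, adjusted p = 5.17e-07) was just short of the 2-fold limit, and it passed the limit when array medians were set equal (-1.04). Its rise from day 3 to iPS cells was 5.01-fold (2.32 ± 0.07, adjusted p = 3.51e-10).

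Mcm4, at an equal value of 9.66 on the 3 fibroblast arrays, read 8.92, 8.68 and 9.03 at day 3 and 10.73, 10.82 and 10.72 in iPS cells. Equal values of this kind can make the spread look smaller than it is. They were not particular to Mcm4, since each pair of arrays within a group shared equal values on 595 to 1172 of all 19937 genes. Mcm2, with the groups given in the same order, read 9.74, 9.72 and 9.68, then 9.36, 9.40 and 9.38, then 11.29, 11.53 and 11.43, a 4.09-fold rise from day 3 (2.03 ± 0.08, limma, adjusted p = 1.73e-09). Mcm7 read 10.25, 10.22 and 10.25, then 10.08, 9.91 and 9.96, then 11.35, 11.29 and 11.25. Its iPS value was 2.08-fold that of fibroblasts (1.05 ± 0.07, adjusted p = 1.51e-07), and with array medians set equal the differences of Mcm4 (0.93) and Mcm7 (0.88) from fibroblasts fell under the 2-fold limit.

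The origin recognition complex, which marks the sites where helicases are loaded, held calls in both directions. Orc1, the subunit whose level is known to vary over the cell cycle, read 6.59, 6.69 and 6.75 for fibroblasts, 6.04, 5.69 and 6.11 at day 3 and 9.07, 8.89 and 8.87 for iPS cells. Day-3 arrays lay below and iPS arrays above all fibroblast arrays. Orc1 rose 7.998-fold from day 3 to iPS cells (3.00 ± 0.11, limma, adjusted p = 1.45e-09), the largest rise of the 45 genes in that comparison, and was 4.81-fold higher in iPS cells than in fibroblasts (2.27 ± 0.11, adjusted p = 7.68e-09).

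Orc4, another subunit of the complex, gave calls in the opposite direction. It read 8.33, 8.41 and 8.48 for fibroblasts, 9.54, 9.23 and 9.70 at day 3 and 8.44, 8.30 and 8.27 for iPS cells. The day-3 arrays lay above both other groups, which overlapped. Orc4 rose 2.11-fold at day 3 (1.08 ± 0.11, limma, adjusted p = 9.72e-06) and fell 2.22-fold from day 3 to iPS cells (-1.15 ± 0.11, adjusted p = 4.30e-06). It was the 1 gene of the 45 called higher at day 3 and the 1 called lower after it. Without the third day-3 array the day-3 difference was 0.97, under the 2-fold limit.

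Orc5 read 8.21, 8.09 and 8.11, then 7.87, 7.56 and 8.11, then 9.35, 9.15 and 9.37, and was called higher in iPS cells against both groups (1.44 ± 0.12 against day 3, limma, adjusted p = 1.31e-06; 1.15 ± 0.12 against fibroblasts, adjusted p = 6.60e-06). With array medians set equal its difference from fibroblasts was 0.98. Orc2, Orc3 and Orc6 were called in none of the 3 comparisons by limma at the 2-fold limit. Orc2 and Orc6 differed between iPS cells and fibroblasts by 0.81 ± 0.10 and 0.52 ± 0.08, and Orc3 by -0.31 ± 0.10; all 3 had an unadjusted p under 0.05 there. Orc3 read 9.66, 9.71 and 9.65 for fibroblasts, 9.45, 9.16 and 9.53 at day 3 and 9.42, 9.28 and 9.39 for iPS cells, where the day-3 and iPS arrays overlapped below the fibroblasts.

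Loading and firing factors gave a uniform order of arrays. On all 8 genes the 3 day-3 arrays lay below all fibroblast and all iPS arrays, an order that 9.85% of all genes had. All 8 were called higher in iPS cells than in day-3 cells, where 6.48% of all genes were. Against fibroblasts 5 were called higher in iPS cells, where 7.63% of all genes were. Gins4 was the 1 of 8 called lower at day 3, where 7.58% of all genes were.

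Cdt1, which brings the helicase to origins, read 9.14, 9.10 and 9.12 for fibroblasts, 8.64, 8.71 and 8.74 at day 3 and 11.13, 11.21 and 11.15 for iPS cells. It rose 5.53-fold from day 3 to iPS cells (2.47 ± 0.07, limma, adjusted p = 1.83e-10), the second largest rise after Orc1. Cdc6, the ATPase that works with CDT1, read 7.73, 7.72 and 7.81, then 7.56, 7.54 and 7.47, then 9.64, 9.79 and 9.81, a 4.67-fold rise (2.22 ± 0.08, adjusted p = 7.54e-10). Both iPS groups stood more than 1 log2 unit above every other array.

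Mcm10, needed to activate the loaded helicase, read 7.81, 7.70 and 7.77 for fibroblasts, 7.19, 7.38 and 7.44 at day 3 and 9.72, 9.67 and 9.66 for iPS cells (5.10-fold from day 3, 2.35 ± 0.08, limma, adjusted p = 8.03e-10). Cdc45, a helicase cofactor, read 8.35, 8.19 and 8.24, then 7.94, 7.93 and 8.16, then 9.65, 9.67 and 9.59. Its day-3 difference from fibroblasts, -0.25 ± 0.09, did not reach the 2-fold limit, and its rise from day 3 was 3.08-fold (1.62 ± 0.09, adjusted p = 2.04e-08).

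The 4 GINS genes encode a complex of 4 subunits that joins CDC45 at the helicase, and they ended at different points relative to fibroblasts. Gins1 read 6.99, 6.97 and 7.02, then 6.58, 6.57 and 6.69, then 8.43, 8.49 and 8.70, and was called higher in iPS cells than in fibroblasts (1.54 ± 0.09, limma, adjusted p = 1.92e-08). Gins4 read 9.71, 9.64 and 9.65, then 8.51, 8.51 and 8.64, then 9.79, 9.59 and 9.65. It fell 2.17-fold at day 3 (-1.12 ± 0.08, adjusted p = 4.48e-07) and rose 2.18-fold after it (1.13 ± 0.08, adjusted p = 2.74e-07), so that its iPS and fibroblast arrays overlapped, with a difference of 0.01 ± 0.08. Under quantile normalization its day-3 difference was -0.98, just under the 2-fold limit.

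Gins2 and Gins3 lay between these. Gins2 differed by -0.93 ± 0.10 at day 3 and by 0.60 ± 0.10 between iPS cells and fibroblasts, neither at the 2-fold limit. Gins3 read 7.55, 7.57 and 7.71, then 6.38, 6.92 and 6.74, then 7.78, 7.69 and 8.11. Its iPS arrays overlapped the fibroblast arrays, and its rise from day 3 was 2.27-fold (1.18 ± 0.14, limma, adjusted p = 2.33e-05).

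**Figure D2:**
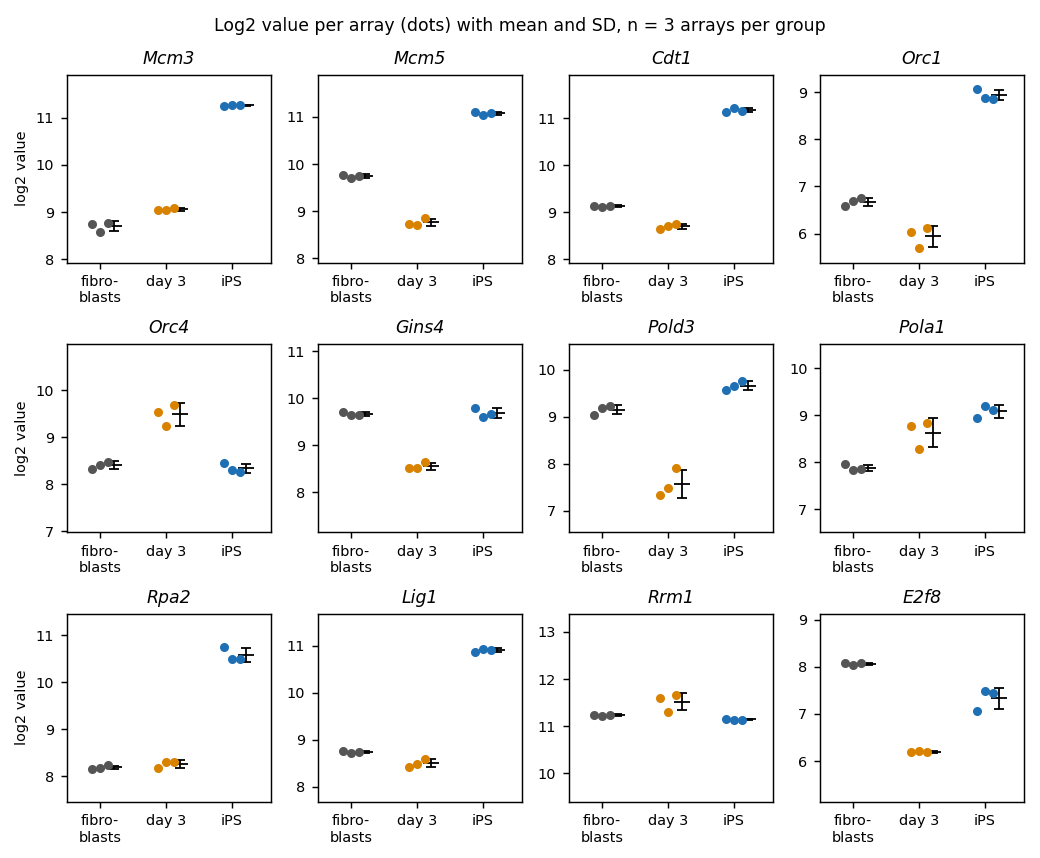
Dots are the log2 values of the 3 arrays of each group for 12 of the 45 genes, with the mean and SD beside them; every panel spans 4 log2 units. Orc1 and Cdt1 are lowest at day 3 and highest in iPS cells, Orc4 and Rrm1 are highest at day 3, and the iPS dots of Gins4 overlap the fibroblast dots.

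Of the 9 polymerase and primase genes, 4 were called lower at day 3 (Prim2, Pold3, Pole and Pole2), against 7.58% of all genes. From day 3 to iPS cells 6 were called higher, against 6.48% of all genes. Pold3, a regulatory subunit of polymerase delta, read 9.04, 9.19 and 9.23 for fibroblasts, 7.34, 7.48 and 7.90 at day 3 and 9.57, 9.66 and 9.75 for iPS cells. It fell 2.99-fold at day 3 (-1.58 ± 0.13, limma, adjusted p = 1.31e-06) and rose 4.25-fold from day 3 to iPS cells (2.09 ± 0.13, adjusted p = 8.57e-08).

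Pole, the catalytic subunit of polymerase epsilon, read 8.87, 8.73 and 8.76, then 7.70, 7.34 and 7.74, then 9.65, 9.73 and 9.66. It fell 2.28-fold at day 3 (-1.19 ± 0.11, limma, adjusted p = 2.36e-06). Its partner subunit Pole2 read 8.12, 8.21 and 8.19, then 6.80, 6.59 and 7.10, then 8.69, 8.44 and 8.38, and fell 2.54-fold (-1.34 ± 0.13, adjusted p = 3.93e-06). Both rose from day 3 to iPS cells, Pole by 2.09 ± 0.11 (adjusted p = 1.43e-08) and Pole2 by 1.67 ± 0.13 (adjusted p = 4.53e-07) on the log2 scale. Against fibroblasts the iPS differences of Pole (0.90 ± 0.11), Pole2 (0.33 ± 0.13) and Pold3 (0.51 ± 0.13) did not reach 2-fold.

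The primase subunits parted. Prim1, the catalytic subunit, read 7.94, 8.17 and 8.25 for fibroblasts, 8.31, 7.99 and 8.42 at day 3 and 10.44, 10.16 and 10.32 for iPS cells, a 4.55-fold difference from fibroblasts (2.18 ± 0.13, limma, adjusted p = 2.52e-08). The fibroblast and day-3 arrays overlapped. Prim2, the large subunit, read 9.36, 9.36 and 9.39, then 8.27, 8.19 and 8.55, then 9.13, 9.02 and 9.09. It fell 2.05-fold at day 3 (-1.04 ± 0.10, adjusted p = 3.25e-06), and its iPS arrays lay below all fibroblast arrays, with a difference that was not called (-0.29 ± 0.10). Its day-3 call was lost under quantile normalization (-0.90) and without the second day-3 array (-0.96).

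The catalytic subunit of polymerase alpha, Pola1, lay in rising order. It read 7.96, 7.83 and 7.86, then 8.77, 8.29 and 8.84, then 8.94, 9.20 and 9.11, with no overlap of groups. The iPS difference from fibroblasts was 2.30-fold (1.20 ± 0.13, limma, adjusted p = 8.65e-06), while neither step alone was called (0.75 ± 0.13 and 0.45 ± 0.13). Pola2, its accessory subunit, differed by -0.82 ± 0.07 at day 3 and rose by 1.46 ± 0.07 after it (adjusted p = 1.58e-08). Pold1, the catalytic subunit of polymerase delta, read 8.29, 8.11 and 8.09, then 7.91, 7.91 and 7.80, then 9.32, 9.45 and 9.30, and was called higher in iPS cells than in fibroblasts (1.19 ± 0.08, adjusted p = 1.44e-07). Pold2, another delta subunit, had differences of -0.30 ± 0.09, 0.28 ± 0.09 and -0.03 ± 0.09 in the 3 comparisons, with 0 calls at the 2-fold limit.

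Of the 11 genes for the clamp, clamp loader, single-strand binding and flap processing, 6 were called higher in iPS cells in each comparison. The shares of all genes were 6.48% against day 3 and 7.63% against fibroblasts. At day 3, 1 of the 11 was called lower, or 9.09%, near the 7.58% of all genes. Rpa2, a subunit of the RPA complex that coats single-stranded DNA, read 8.17, 8.18 and 8.23 for fibroblasts, 8.17, 8.31 and 8.31 at day 3 and 10.76, 10.50 and 10.49 for iPS cells. It was 5.24-fold higher in iPS cells than in fibroblasts (2.39 ± 0.09, limma, adjusted p = 7.52e-10), and its day-3 and fibroblast arrays overlapped. Rpa1 read 9.14, 9.15 and 9.31, then 9.20, 8.96 and 9.27, then 10.38, 10.27 and 10.26, a rise of 1.16 ± 0.10 from day 3 (adjusted p = 9.33e-07). With array medians set equal the difference of Rpa1 from fibroblasts went from 1.10 to 0.93 and was not called.

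Lig1, the ligase that joins lagging-strand fragments, read 8.75, 8.72 and 8.73, then 8.43, 8.49 and 8.59, then 10.86, 10.93 and 10.91. It rose 5.27-fold from day 3 to iPS cells (2.40 ± 0.07, limma, adjusted p = 3.10e-10) and stood 4.49-fold above fibroblasts (2.17 ± 0.07, adjusted p = 3.40e-10). Fen1, the flap endonuclease that trims those fragments, read 7.90, 7.88 and 7.88, then 8.38, 8.31 and 8.44, then 9.52, 9.35 and 9.46. The groups of Fen1 stood apart in rising order, and the iPS cells were 2.94-fold above fibroblasts (1.56 ± 0.07, adjusted p = 5.81e-09). With array medians set equal its rise from day 3 went from 1.06 to 0.95 and was not called.

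Of the clamp loader genes, Rfc2 was called higher in iPS cells in both comparisons (1.10 ± 0.07 against day 3, limma, adjusted p = 1.15e-07; 1.05 ± 0.07 against fibroblasts, adjusted p = 1.04e-07), and both calls were lost with array medians set equal (0.98 and 0.88). Rfc5 read 10.33, 10.27 and 10.30, then 8.99, 9.58 and 9.25, then 10.37, 10.43 and 10.20. It fell 2.03-fold at day 3 (-1.02 ± 0.13, adjusted p = 4.25e-05) and rose 2.08-fold after it (1.06 ± 0.13, adjusted p = 2.70e-05), so that iPS and fibroblast arrays overlapped. Without the first day-3 array these differences were -0.88 and 0.91, both under the limit, and quantile normalization gave -0.90 at day 3. Rfc1, Rfc3 and Rfc4 were not called in any comparison; their day-3 differences were 0.16 ± 0.08, -0.37 ± 0.10 and -0.81 ± 0.12, and their iPS differences from fibroblasts 0.73 ± 0.08, 0.28 ± 0.10 and -0.23 ± 0.12.

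Pcna, the sliding clamp, and Rpa3, the small RPA subunit, were the 2 genes with 2 array rows each. The Pcna row used here read 11.40, 10.70 and 11.07 for fibroblasts, 11.29, 11.45 and 11.47 at day 3 and 11.96, 12.18 and 12.06 for iPS cells, with the widest fibroblast spread of the 45 genes (SD 0.35, n = 3). It was called higher in iPS cells than in fibroblasts (1.01 ± 0.15, limma, adjusted p = 8.77e-05), and the call was lost without the second fibroblast array (0.83) or the second iPS array (0.95). The other Pcna row read 11.39, 11.30 and 11.23, then 10.73, 10.62 and 10.83, then 11.85, 11.81 and 11.84. Its arrays were lowest at day 3, the order seen for most of the machinery, whereas on the row used the day-3 arrays overlapped the fibroblasts.

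In a limma fit over all array rows, the other Pcna row differed by -0.58 ± 0.08 at day 3 (adjusted p = 0.000437), by 1.10 ± 0.08 from day 3 to iPS cells (adjusted p = 5.96e-06) and by 0.53 ± 0.08 between iPS cells and fibroblasts (adjusted p = 0.000509). In that fit the row used gave 0.34 ± 0.16 at day 3 (adjusted p = 0.134). Which row reads the Pcna transcript was not tested, so the direction of Pcna at day 3 is uncertain. The Rpa3 rows ran the same way, at -0.88 and -0.58 at day 3 and -0.29 on each row for iPS cells against fibroblasts, and Rpa3 was called in none of the 3 comparisons.

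**Figure D3:**
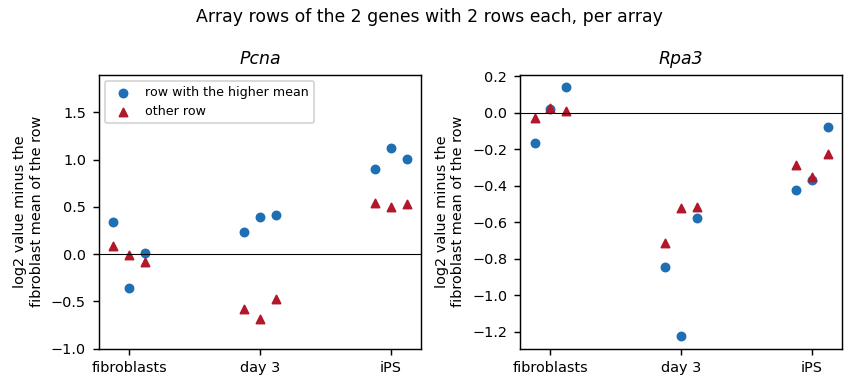
Each mark is the log2 value of 1 array minus the mean of the 3 fibroblast arrays of the same row, for the row with the higher mean (circles) and the other row (triangles) of Pcna and Rpa3. At day 3 the Pcna circles lie above 0 and the triangles below it, while the Rpa3 marks of both rows lie below 0.

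Nucleotide supply gave a mixed picture. Rrm2, the regulated small subunit of ribonucleotide reductase, read 10.99, 10.98 and 11.03 for fibroblasts, 10.55, 10.30 and 10.56 at day 3 and 11.82, 11.54 and 11.63 for iPS cells, and rose 2.29-fold from day 3 (1.20 ± 0.10, limma, adjusted p = 8.72e-07). Tyms, which makes thymidylate, read 9.23, 9.21 and 9.17, then 8.53, 7.90 and 8.45, then 9.46, 9.47 and 9.59, a 2.31-fold rise from day 3 (1.21 ± 0.14, adjusted p = 1.57e-05). Both had day-3 arrays below all others. Rrm1, the large reductase subunit, read 11.24, 11.21 and 11.24, then 11.59, 11.31 and 11.65, then 11.16, 11.14 and 11.13, so its day-3 arrays lay above both groups. Its differences of 0.28 ± 0.09 and -0.38 ± 0.09 were not called, and with array medians set equal its day-3 arrays overlapped the fibroblasts.

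Both E2F factors fell at day 3, and E2f8 had the deepest day-3 fall of the 45 genes. E2f8, a repressor of the E2F family, read 8.08, 8.03 and 8.08 for fibroblasts, 6.19, 6.21 and 6.19 at day 3 and 7.07, 7.48 and 7.44 for iPS cells. It fell 3.66-fold at day 3 (-1.87 ± 0.10, limma, adjusted p = 5.21e-08) and rose 2.20-fold after it (1.14 ± 0.10, adjusted p = 1.99e-06), which left all iPS arrays below all fibroblast arrays (-0.74 ± 0.10, not called). E2f1, an activator of S-phase genes, read 9.11, 9.09 and 9.001, then 7.62, 7.77 and 7.79, then 8.82, 8.91 and 8.88. It fell 2.53-fold at day 3 (-1.34 ± 0.08, adjusted p = 7.86e-08) and rose 2.20-fold after it (1.14 ± 0.08, adjusted p = 1.72e-07), with iPS arrays again below the fibroblasts (-0.20 ± 0.08, not called). Over the scalings, row choices and left-out arrays, the E2f1 difference of iPS cells from fibroblasts lay between -0.37 and -0.03.

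**Figure D4:**
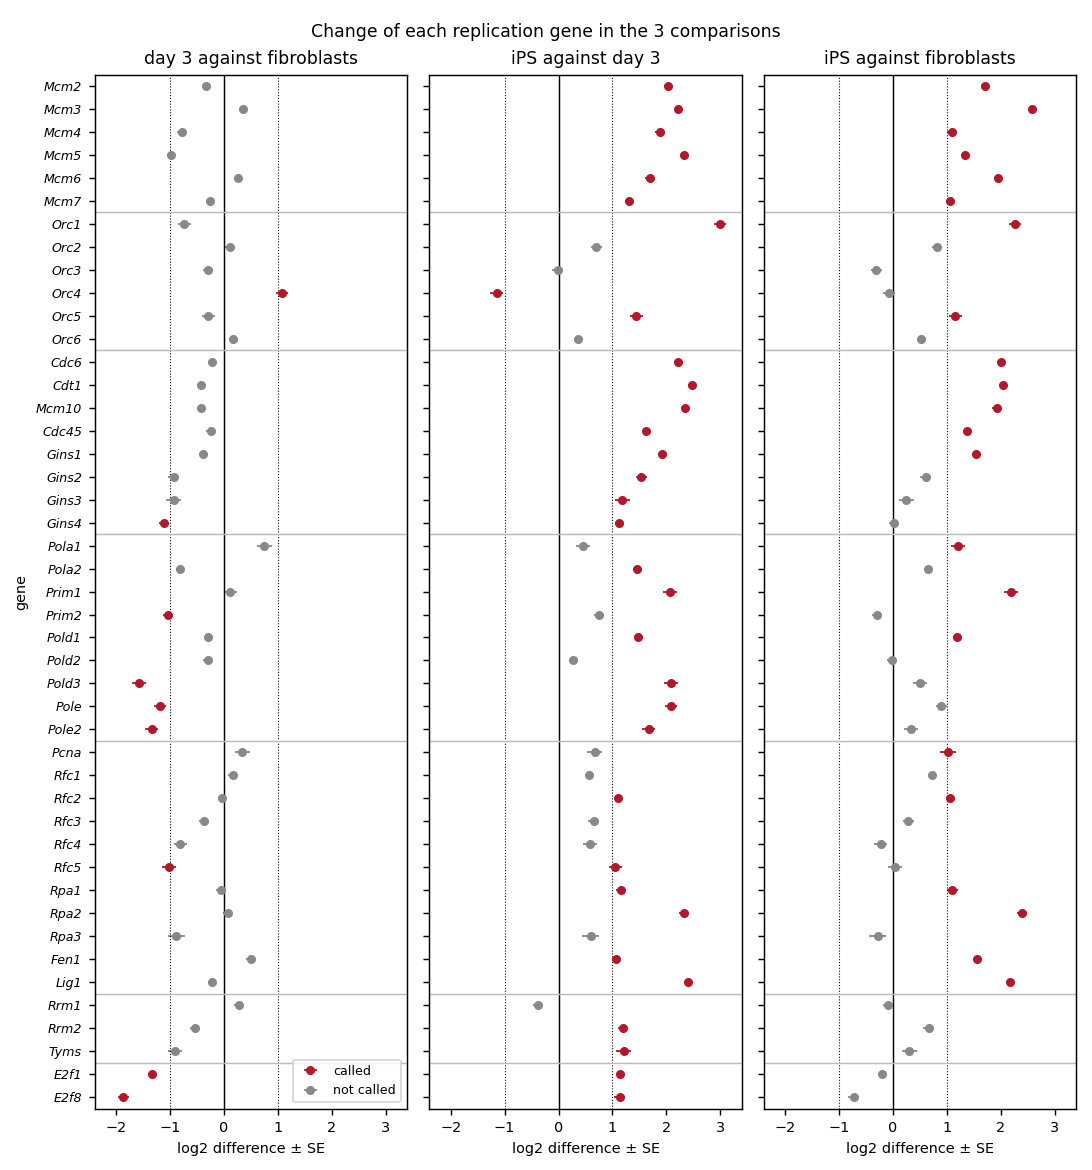
Points are the log2 differences of the 45 genes with their standard errors in the 3 comparisons, in red where called and grey where not, with dotted lines at the 2-fold limits. In the day-3 panel 8 red points lie to the left and Orc4 to the right; in the panel of iPS against day 3, 32 red points lie to the right and Orc4 to the left.

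The order of the arrays was also counted without a fold limit. For 29 of the 45 genes all 3 day-3 arrays lay below all arrays of both other groups, an order that 9.85% of all genes had. For Orc4 and Rrm1, 2 of 45, they lay above both, as for 9.44% of all genes. Mcm3, Mcm6, Orc6, Pola1, Rfc1 and Fen1 lay in rising order with no overlap, 13.33% of the 45 against 6.02% of all genes. In falling order lay 0 of the 45, against 10.47% of all genes. For 8 of the 45, 17.78%, the day-3 arrays overlapped another group, against 64.21% of all genes. By role, the day-3 arrays were lowest for 8 of 8 loading and firing genes, 7 of 9 polymerase and primase genes, 4 of 6 helicase genes, 2 of 3 nucleotide genes, 2 of 2 E2F genes, 5 of 11 clamp and fork genes and 1 of 6 origin recognition genes. When 1 array at a time was left out, the count for the 45 genes lay between 29 and 31, but fewer arrays can only keep or raise it. With array medians set equal the count was 26, where 8.42% of all genes had this order. Under quantile normalization it was 28, where 9.21% of all genes did.

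Whether a gene changed differently in the 2 steps was tested as the log2 difference of iPS cells from day 3 minus that of day 3 from fibroblasts, with both steps sharing the day-3 arrays. The limma adjusted p was under 0.05 for 41 of the 45 genes, against 42.7% of all genes. The step difference was positive and at least 1 for 35 of them, from Orc1 (3.73 ± 0.20, adjusted p = 4.22e-08) and Pold3 (3.67 ± 0.23, adjusted p = 1.43e-07) downward, and negative and at least 1 in size for Orc4 (-2.23 ± 0.20, adjusted p = 2.64e-06). Of all genes, 12.9% had such a positive and 9.91% such a negative step difference. Orc3 (0.28 ± 0.17), Orc6 (0.20 ± 0.14), Pola1 (-0.30 ± 0.23) and Pcna (0.33 ± 0.25) had an adjusted p above 0.05. For Pcna this depended on the row. In the limma fit over all array rows its other row had a step difference of 1.68 ± 0.14 (adjusted p = 2.25e-05).

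The day-3 arrays also differed among themselves on these genes. The third day-3 array gave the highest value of its group for 35 of the 45 genes and the second the lowest for 27. The median offset of the 45 genes from the other arrays of the group was 0.14 for the third and -0.10 for the second day-3 array on the log2 scale, while over all genes the offsets were -0.02 and 0.04. The median SD within a group was 0.05 for fibroblasts, 0.13 at day 3 and 0.09 for iPS cells for the 45 genes, and 0.07, 0.13 and 0.11 for all genes.

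Other genes of DNA replication and of the passage from G1 to S phase were counted on a list of 66, of which 64 were measured. At day 3, 2 were called higher and 7 lower (3.12% and 10.94%, against 3.25% and 7.58% of all genes), with a median difference of -0.12. In iPS cells against day 3, 22 were called higher and 7 lower (34.38% and 10.94%, against 6.48% and 8.57% of all genes, median 0.83). Against fibroblasts 19 were called higher and 7 lower (29.69% and 10.94%, against 7.63% and 13.8% of all genes, median 0.36). Ticrr, which helps to load CDC45 at origins, fell at day 3 (-1.43 ± 0.09, limma, adjusted p = 1.64e-07) and rose from day 3 to iPS cells by 4.25 ± 0.09 (adjusted p = 2.50e-11), the largest rise on the list in that comparison. Rb1, the retinoblastoma protein that holds E2F factors in check, ran the other way, with a rise at day 3 (1.42 ± 0.10, adjusted p = 4.25e-07) and a fall after it (-3.47 ± 0.10, adjusted p = 2.36e-10).

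The other gene of the list that rose at day 3 was Cdkn2a (1.51 ± 0.10, limma, adjusted p = 1.78e-07), which encodes inhibitors of the cell cycle, and it fell after day 3 (-1.92). The cyclins Ccne2 (-1.36 ± 0.23, adjusted p = 0.000518) and Ccna2 (-1.35 ± 0.08, adjusted p = 1.04e-07), partners of the S-phase kinase CDK2, fell with Ticrr. Dna2, a nuclease of flap processing, and Chaf1b, a chromatin assembly subunit, rose from day 3 to iPS cells by 2.46 ± 0.08 (adjusted p = 6.52e-10) and 2.37 ± 0.08 (adjusted p = 9.86e-10). The cell cycle inhibitor Cdkn2b (-2.30 ± 0.10, adjusted p = 3.50e-09) and the cyclin Ccnd2 (-2.30 ± 0.07, adjusted p = 3.12e-10) fell with Rb1. Against fibroblasts the largest rises were those of Ticrr (2.82), the histone chaperone Nasp (2.76) and Uhrf1 (2.47), a partner of the maintenance methyltransferase, and the largest falls those of Rb1 (-2.05), its relative Rbl2 (-1.81) and the delta subunit Pold4 (-1.81).

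Genes of G2 phase and mitosis were counted for comparison, 29 of 30 measured. At day 3, 0 were called higher and 8 lower, where 3.25% and 7.58% of all genes were, with a median difference of -0.74. The falls were led by Ube2c (-1.57 ± 0.09, limma, adjusted p = 9.44e-08), Mki67 (-1.47 ± 0.13, adjusted p = 2.42e-06) and Nusap1 (-1.43 ± 0.12, adjusted p = 2.10e-06). In iPS cells against day 3, 12 were called higher and 0 lower (median 0.94), where 6.48% and 8.57% of all genes were. The rises were led by Kif2c (1.88), Birc5 (1.88) and Kif20a (1.72). Day-3 arrays lay below both other groups for 22 of the 29, or 75.86%. Of the 45 replication genes 64.44% had this order, and of all genes 9.85%. Against fibroblasts 2 were called higher, Kif2c (1.32) and Bub1b (1.19), and 1 lower, Mki67 (-1.04), where 7.63% and 13.8% of all genes were. The median was 0.24, where it was 0.90 for the 45 replication genes. The difference between the lists was not tested.

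**Figure D5:**
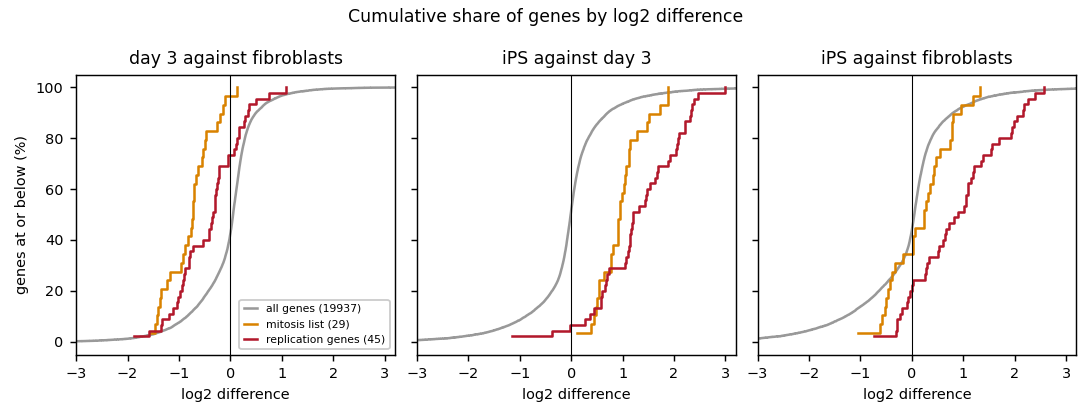
Lines give the cumulative percent of genes at or below each log2 difference for all 19937 genes (grey), the 29 mitosis genes (orange) and the 45 replication genes (red). At day 3 against fibroblasts the red and orange lines lie to the left of the grey line, in iPS cells against day 3 both lie to the right of it over most of their length, and in iPS cells against fibroblasts the red line lies further right (median 0.90) than the orange line (median 0.24).

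Set beside the promoter letters, 12 of the 15 genes with an E2F match were called higher in iPS cells than in day-3 cells (median 1.69), as were 14 of the 23 genes with a window and no match (median 1.14) and 6 of the 7 with no entry. Against fibroblasts these counts were 10, 9 and 3. Of all genes, 6.48% were called higher against day 3 and 7.63% against fibroblasts. The 3 genes with a match that were not called higher from day 3 to iPS cells were Orc3, Pola1 and Rfc3. At day 3 against fibroblasts 2 of the 15 with a match were called lower, Pold3 and Pole2. Of the 23 without a match 3 were called lower and 1 higher, and of the 7 with no entry 3 were called lower. Of all genes, 7.58% were called lower and 3.25% higher. The medians with and without a match were both -0.29, and the median of the 7 with no entry was -0.93.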

How the data were processed

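The authors deposited 1 table of log2 expression values for 34760 array rows on 9 arrays, whose column medians lay between 6.01 and 6.23. How the authors made these log2 values, with which normalization, software and background correction, is not given in the sources used here. They were used as deposited, and the number of arrays limits the precision. Gene symbols of rows came from GEO's platform annotation: 21640 carried 1 gene symbol, 1321 several and 11799 were not listed, and the 954 genes with several rows were each read from the row with the highest mean. A linear model with a mean per group was fitted by limma 3.58.1 (lmFit, contrasts and eBayes; R 4.3.3) to all 9 arrays, with Benjamini-Hochberg adjustment over 19937 genes, and the script was tested on simulated data. Standard errors are those of the fit. Groups came from titles and source names.

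All 45 members are named; of the other lists, the 3 largest rises and falls among called genes of each comparison are named, fewer where fewer were called. The members and lists were chosen with earlier results of these data known. Motifs were matched as exact letters in RefSeq promoter windows of GRCm38.p6. Replicate numbers were not taken to pair arrays, since correlations of deviations between same-numbered arrays lay between -0.098 and 0.062. The alternatives were other scalings, row choices, call rules and fits, a replicate block, and leaving out each array.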

Additional observations from a re-analysis of the deposited data

How the results depend on the processing

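The counts of called genes and the medians over the 45 genes were recomputed under other scalings, row choices, fits and call rules and without each array; no call changed sign. With an adjusted p under 0.05 alone, 6 genes were higher and 30 lower at day 3 against fibroblasts, 2 were lower in iPS cells against day 3 and 4 lower against fibroblasts; dropping the fold limit makes the rule wider, and in the same order it called 3832, 5054, 4635 and 5792 of all 19937 genes. Quantile normalization left 5 genes lower at day 3 (median difference -0.19; Gins4, Prim2 and Rfc5 were lost) and gave a median of 1.05 for iPS cells against fibroblasts. Setting array medians equal gave medians of 1.09 for iPS cells against day 3 and 0.73 against fibroblasts, moved the median of all genes in the latter from 0.05 to -0.12, and left 1 gene, Orc4, with day 3 above both groups. Placing the third fibroblast array with day 3 left 0 genes higher and 0 lower at day 3, where 0 of all genes were called too, and 0 lower in iPS cells against day 3 (the last chosen after seeing the data, as were the counts of array orders). Leaving out 1 array at a time gave 0 to 1 genes higher at day 3, 0 without the third day-3 array, and a median of 1.21 to 1.33 for iPS cells against day 3. Over 12 scalings, row choices and left-out arrays, 5 of 9, 30 of 33 and 16 of 22 calls held in the 3 comparisons. The replicate block gave 1 gene higher and 8 lower at day 3 and changed no call. E2F letters lay in a window of 9 of the 38 genes with one (23.7%) when the bases after the start were left out. The causes were not tested, and differences near 2-fold are those that the number of arrays limits most.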
